A study of Homo sapiens with 6 samples.

Results

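Epithelial-mesenchymal transition (EMT) is the program by which cells joined in an epithelial sheet loosen their junctions and take on the shape and motility of mesenchymal cells. Its regulators and markers were followed here in a human hepatocellular carcinoma cell line overexpressing transketolase (TKT), an enzyme of the non-oxidative pentose phosphate pathway. The set held 10 genes chosen by symbol, namely the EMT transcription factors ZEB1, ZEB2, SNAI1, SNAI2 and TWIST1, the mesenchymal markers CDH2 and VIM, and the epithelial markers CDH1, EPCAM and OCLN. Of these 10 genes, 9 were among the 22077 genes with a row in the deposited count table, and 8 passed the filter on low counts and were tested. TWIST1 was not analysed here.

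Bulk RNA-seq was compared between 3 libraries of TKT-overexpressing cells and 3 libraries of vector control cells. The sample labels spell the line Hu7 and call the control genotype wt, the study's Results name Huh7 and its Methods name HCCLM3. TKT was carried on a plasmid with GFP and puromycin markers (pTSB02-GFP-PURO), cells were selected after transfection, and the sources used here do not say whether the 3 libraries of a group came from separate transfections. Otherwise the labels give both groups the same cells and handling, with no drug or time course. The study followed E-cadherin, N-cadherin and vimentin as proteins to ask whether TKT moves these cells along EMT, and the libraries allow the same question to be put to the transcripts.

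The ZEB and Snail families bind E-boxes in the promoters of epithelial genes, with CDH1 as the best known target, and repress them. ZEB1 and ZEB2 are in turn held down by the miR-200 family in epithelial cells. In liver, hepatocytes are epithelial and carry E-cadherin. Loss of E-cadherin with gain of N-cadherin is known as the cadherin switch and is associated with invasion.

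The libraries held between 30148788 and 37096156 counts. TKT itself, which checks the labels, rose 19.1-fold (edgeR adjusted p = 1.15e-25), from 494 ± 23.0 CPM (counts normalized to sequencing depth with TMM factors; SD, n = 3) in control cells to 9442 ± 88.2 (SD, n = 3). Among replicates the chi-square per degree of freedom of the counts lay between 7.27 and 10.01, so no library was a copy of another. Of the hepatocyte markers, ALB averaged 8071 and 7910 CPM and AFP 8638 and 8329 CPM in TKT and control cells, while APOB had at most 6 counts in any library and was not tested. Of the 15 hepatocyte markers tested, 5 were higher and 2 lower, which is 46.7%, beside 10.6% of all genes tested. The higher ones were FGB, FGA, FGG, FOXA2 and APOH (log2 fold changes 0.50, 0.50, 0.37, 0.35 and 0.30). The lower ones were HNF4A (-0.15) and APOA2 (-0.13). The summed level of the list, most of it ALB and AFP, was 22519 to 22931 CPM in TKT cells and 21703 to 22162 CPM in control cells. Fibroblast and stellate cell markers summed to 13.1 to 13.4 CPM in TKT cells and 12.7 to 13.6 CPM in control cells, none of the 4 tested was called, and COL1A2, LUM and LRAT had at most 2 counts in every library. The 4 tested were PDGFRA (7.76 CPM in TKT and 7.90 CPM in control cells), RGS5 (3.16 and 3.15 CPM), PDGFRB (1.69 and 1.70 CPM) and COL1A1 (0.605 and 0.282 CPM). Endothelial and leukocyte markers summed to 22.5 to 27.3 CPM and 26.0 to 28.5 CPM, respectively, with none of 2 called.

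Of the 8 members tested, 2 were called higher at an adjusted p under 0.05, 0 were called lower and 6 were not called. In the same edgeR fit 10.6% of all 14162 genes tested were called, 5.69% higher and 4.94% lower, and the median log2 fold change was 0.00. The 2 called members were ZEB1 and ZEB2. ZEB2 passed the filter only through the TKT libraries, so the count of called members is a description of these genes and no evidence about the set. With the additional requirement of an absolute log2 fold change over 1, the threshold of the study's Statistical analysis section, ZEB2 alone remained, against 0.727% of all genes tested. The CPM values of the groups did not overlap for ZEB1, ZEB2 and CDH2, which is 3 of 8 members, while 28% of all genes tested did not overlap. ZEB2 is among these members only because the TKT libraries carried it past the filter, so this count is likewise a description and no evidence about the set. For a single gene the exact two-sided permutation test of 3 against 3 libraries cannot go below p = 0.1, so the adjusted p values from the fit across all genes are given.

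**Figure D1:**
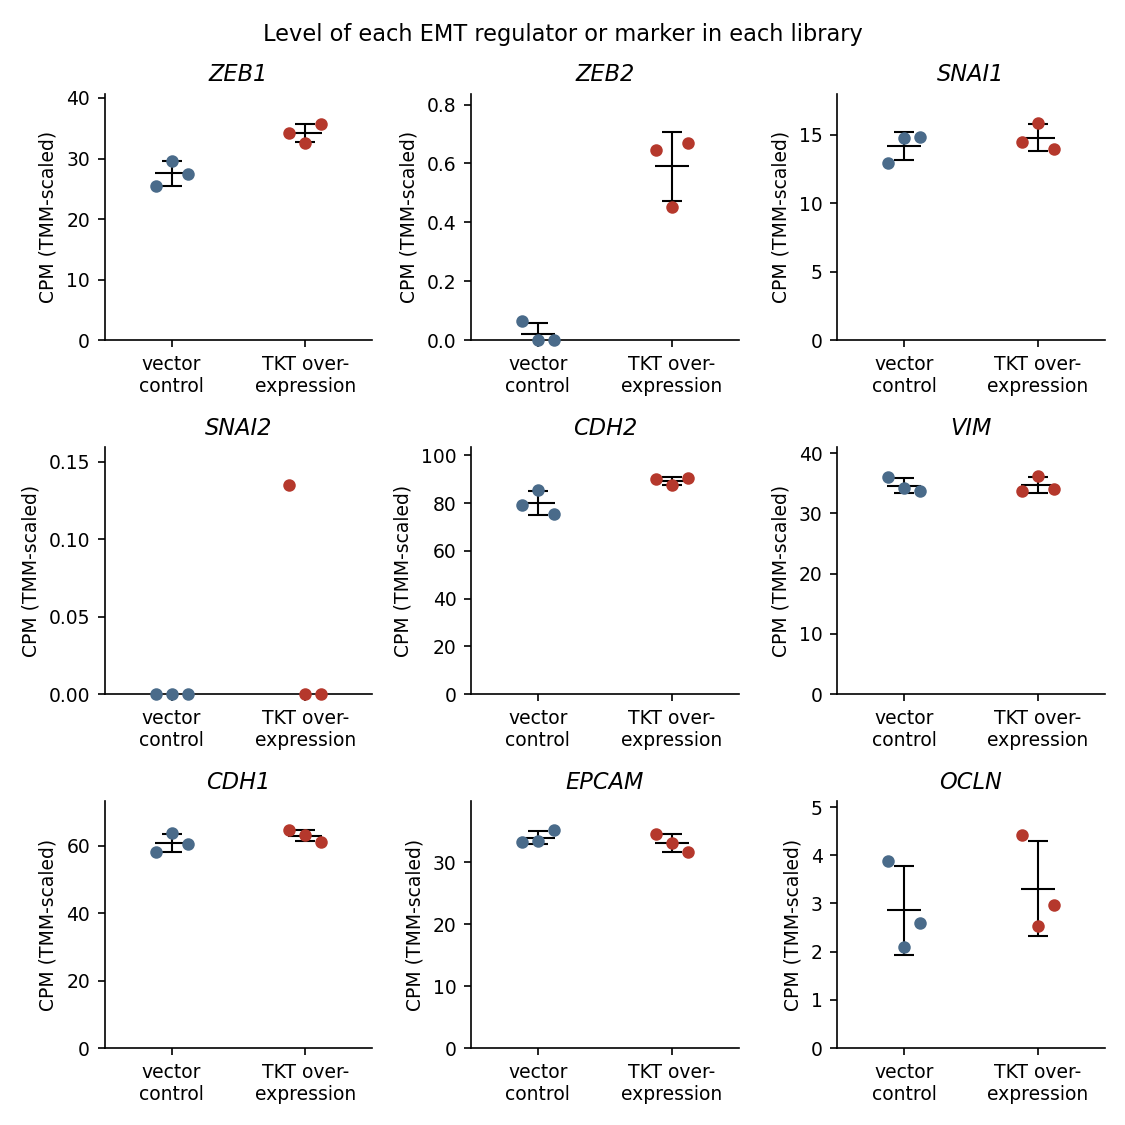
Each panel plots 1 gene, with TMM-scaled CPM on a linear axis from 0 and the vector control (blue) and TKT overexpression (red) libraries as points; bars give the mean ± SD of 3 libraries and are left out for SNAI2. ZEB1, ZEB2 and CDH2 show no overlap between groups, the points of CDH1, VIM, EPCAM, SNAI1 and OCLN overlap, and SNAI2 has counts in 1 library only.

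ZEB1 was the regulator with both a measurable level and a change. ZEB1, a zinc finger and homeodomain repressor of CDH1, lies on chromosome 10 of hg38 from 31318495 to 31529814 on the plus strand (GENCODE 29). The control libraries held 803, 899 and 922 ZEB1 counts and the TKT libraries 1269, 1007 and 1174. These correspond to 25.5, 29.6 and 27.5 CPM in control cells and 34.2, 32.6 and 35.7 CPM in TKT cells, so the lowest TKT library lay above the highest control library. The control mean was 27.5 ± 2.02 CPM and the TKT mean 34.2 ± 1.53 CPM (SD, n = 3 per group). On the log2 scale ZEB1 rose by 0.31 ± 0.07 (± standard error, edgeR adjusted p = 0.00715). The fold was 1.24 with a 95% interval of 1.12 to 1.38. A log2 fold change of this absolute size or more was seen in 18.3% of all genes tested. Control replicate 1 was the lowest library, and without it the log2 fold change was 0.26 and the call was lost (edgeR adjusted p = 0.0521). With limma on log2(FPKM + 1) ZEB1 was not called either (adjusted p = 0.0846).

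ZEB2 was close to silent in control cells and low in TKT cells. ZEB2, the paralog of ZEB1 with the same activity on E-boxes, lies on chromosome 2 from 144364364 to 144524583 on the minus strand. Its counts were 2, 0 and 0 in the control libraries and 24, 14 and 22 in the TKT libraries. Every TKT library stood above the floor of 3 counts and every control library stood at or under it. In CPM the TKT libraries reached 0.647, 0.454 and 0.669, and the only control library with a value had 0.0636. Summed over libraries and corrected for depth, 60 counts against 2 gave a ratio of 28.4, with an exact 95% counting interval of 7.52 to 239.7. ZEB2 passed the filter only through the TKT libraries, so its edgeR adjusted p of 0.00184 is a description and no independent support. Without a filter, with all 22077 genes tested, its edgeR adjusted p was 9.04e-05, but that of ZEB1 fell there as well, to 0.000653. With limma on log2(FPKM + 1) and log2(FPKM + 0.1) ZEB2 was not called (adjusted p = 0.619 and 0.377). Its fitted fold change depends on the prior count and is not given as a size. Averaged over all 6 libraries, control cells included, 1.31% of the genes tested had a lower abundance than ZEB2. Per length, its mean was 0.0225 FPKM in TKT cells against 3.94 FPKM for ZEB1.

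The counts of such rare transcripts are not all independent. Among genes with 1 to 10 counts between 62.1% and 65% of the values of a library were even, while above 200 counts between 49.6% and 50.5% were even. In TKT replicate 1, for example, 1227 genes had exactly 2 counts and 677 genes had exactly 1. Where both mates of a read pair are counted, 2 counts come from 1 fragment, and the counting option used was not given in the sources used here. On halved counts, 30 against 1, the ratio of ZEB2 is the same by arithmetic, and only its counting interval changed, widening to 4.72 to 1158. ZEB1 was still called with all counts halved (edgeR adjusted p = 0.00585). All these intervals cover counting error only.

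The promoters of both ZEB genes are shown because these were the members called. RefSeq windows (GRCh38.p14) were found for 5 of the 10 genes, namely ZEB1, ZEB2, CDH2, VIM and OCLN, and CDH1, EPCAM, SNAI1, SNAI2 and TWIST1 had no entry. The 250 bases before the most upstream ZEB1 start and before the ZEB2 start of these windows are given 5′ to 3′ on the gene strand. CAGGTG or its reverse complement CACCTG, the core bound by ZEB and Snail proteins, is in capitals. The ZEB2 window lies inside the GENCODE 29 locus, which reaches 144524583 on the minus strand. It therefore does not describe the 5′ end of that locus.
ZEB1 (chr10:31318167-31318416, plus strand): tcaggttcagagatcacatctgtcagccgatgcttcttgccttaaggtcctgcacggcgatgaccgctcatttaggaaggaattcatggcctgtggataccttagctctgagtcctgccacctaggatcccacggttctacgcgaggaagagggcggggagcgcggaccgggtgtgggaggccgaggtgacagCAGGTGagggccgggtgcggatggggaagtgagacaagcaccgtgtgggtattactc
ZEB2 (chr2:144520120-144520369, minus strand): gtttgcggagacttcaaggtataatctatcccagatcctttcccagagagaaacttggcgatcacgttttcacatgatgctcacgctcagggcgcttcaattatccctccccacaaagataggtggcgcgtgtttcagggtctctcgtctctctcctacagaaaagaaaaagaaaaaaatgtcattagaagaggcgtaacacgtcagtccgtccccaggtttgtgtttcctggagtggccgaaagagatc
The ZEB1 window held 1 match, which began 57 bases before the start, and the ZEB2 window held 0. Both letter strings were searched on both strands, which is the same search, in windows of 300 bases (250 before to 50 after a start). Of the 13 windows of these 5 genes 4 held a match, in ZEB1 and OCLN, and of all 35116 windows 20.6% did. A match describes letters in a window and not a bound site.

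Neither Snail gene was called. SNAI1, which encodes Snail, the zinc finger repressor that acts early in EMT, lies on chromosome 20 from 49982999 to 49988886 on the plus strand. Its counts were 408, 448 and 498 in control cells and 537, 490 and 460 in TKT cells. In CPM these were 13.0, 14.7 and 14.8 against 14.5, 15.9 and 14.0, with the groups overlapping. SNAI1 was not called, and its fold of 1.04 had a 95% interval of 0.901 to 1.20 (edgeR adjusted p = 0.789). SNAI2, which encodes Slug, had 0 counts in all 3 control libraries and 5, 0 and 0 in the TKT libraries. It was not tested, and no fold is given. If counts were independent, a count of 0 would allow up to 3 counts, or between 0.0894 and 0.0987 CPM in a control library. Where both mates of a read pair are counted this bound would be higher. SNAI2 was therefore not detectable at this depth in 5 of 6 libraries.

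No other EMT transcription factor was called. Of the 16 factors listed 12 had a row and 9 were tested. Of these, 2 were higher (ZEB1 and ZEB2), 0 were lower and 7 were not called, beside 10.6% called among all genes tested. ZEB2 passed the filter only through the TKT libraries, so this count is a description and no evidence about the list. The median log2 fold change was 0.06, also with ZEB2 at the low end of its interval on halved counts, against 0.00 for all genes tested. The most abundant factors per length were SOX9 (41.6 FPKM over all libraries), TCF3 (40.9 FPKM) and FOXQ1 (15.1 FPKM), and none was called. TCF3, which encodes the E proteins E12 and E47, had 277, 263 and 264 CPM in control cells and 254, 257 and 254 CPM in TKT cells (log2 fold change -0.07, edgeR adjusted p = 0.237). For SOX9 and FOXQ1 the log2 fold changes were -0.03 and -0.15 (edgeR adjusted p = 0.785 and 0.164). FOXC2 had at most 2 counts in any library. PRRX1, a homeobox factor of mesenchymal cells, was under the filter, and it is named because its counts were seen to resemble those of ZEB2. Its counts were 2, 0 and 0 in control cells and 8, 10 and 14 in TKT cells, a ratio of 15.1 with an exact 95% counting interval of 3.86 to 130.35, or 2.35 to 634.7 on halved counts.

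The cadherins were the markers with the most reads. CDH2 encodes N-cadherin, an adhesion molecule of mesenchymal and neural cells that is not confined to them. The gene lies on chromosome 18 from 27950966 to 28177446 on the minus strand. Its counts were 2486, 2593 and 2528 in control cells and 3334, 2699 and 2982 in TKT cells. After scaling these were 79.1, 85.3 and 75.3 CPM against 89.9, 87.4 and 90.6 CPM, so that the groups did not overlap, with control replicate 2 just below TKT replicate 2. The mean was 79.9 ± 5.06 CPM in control cells and 89.3 ± 1.67 CPM in TKT cells (SD, n = 3 each). The fold was 1.12 with a 95% interval of 1.04 to 1.21, and CDH2 missed the threshold after adjustment over all genes (edgeR adjusted p = 0.0563). The call depended on control replicate 2 and on the filter. Without control replicate 2 the log2 fold change was 0.21 (edgeR adjusted p = 0.0108), while leaving out any other library gave adjusted p values between 0.0665 and 0.241. With all libraries, edgeR called CDH2 with no filter on low counts (adjusted p = 0.0261) and with a filter of 1 CPM in 3 libraries (adjusted p = 0.0483), and DESeq2, the tool of the study, called it as well (adjusted p = 0.0491).

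CDH1, which encodes E-cadherin and lies on chromosome 16 from 68737225 to 68835548 on the plus strand, was not called in either direction. Its counts were 1828, 1934 and 2032 in control cells and 2395, 1945 and 2014 in TKT cells. The CPM values of 58.1, 63.6 and 60.5 in control cells and 64.6, 63.0 and 61.2 in TKT cells overlapped. CDH1 was not called (log2 fold change 0.05, standard error 0.05, edgeR adjusted p = 0.634), and the 95% interval of the fold ran from 0.959 to 1.12.

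The cadherin switch was also read as a ratio within each library, per length. The FPKM of CDH2 over that of CDH1 was 0.963, 0.949 and 0.881 in control cells and 0.985, 0.982 and 1.05 in TKT cells. All 3 TKT libraries lay above all 3 control libraries, with a mean of 1.01 ± 0.0371 against 0.931 ± 0.0440 (SD, n = 3 each), and the exact permutation test gave the lowest p that 3 against 3 can reach, two-sided p = 0.1. N-cadherin and E-cadherin transcripts were thus at near equal FPKM in both groups.

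**Figure D2:**
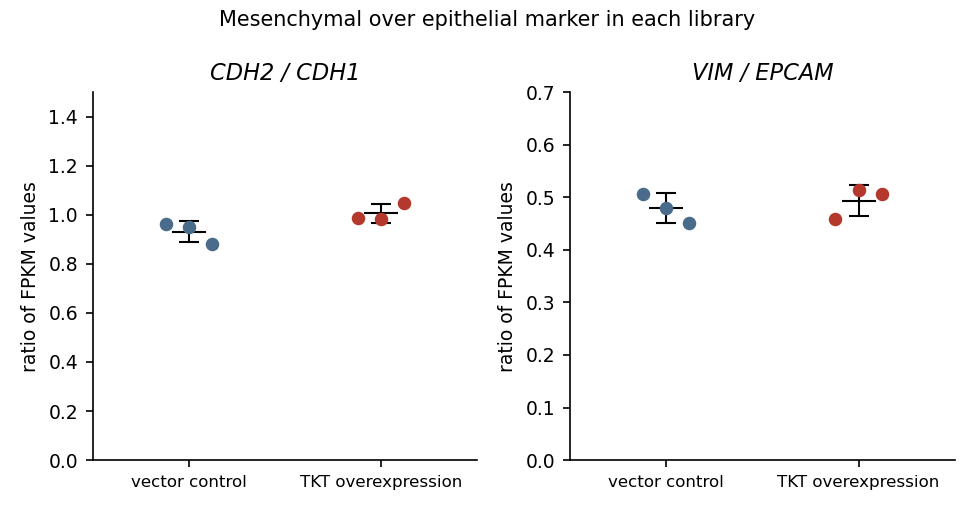
The ratio of FPKM values of CDH2 over CDH1 (left) and VIM over EPCAM (right) is plotted for each library from 0, with control libraries in blue, TKT libraries in red and bars for the mean ± SD of 3 libraries. The CDH2 over CDH1 values do not overlap, between 0.881 and 0.963 in control cells and between 0.982 and 1.05 in TKT cells, and the VIM over EPCAM values do.

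VIM, the intermediate filament protein vimentin of mesenchymal cells, had the smallest change of the members. VIM lies on chromosome 10 from 17228259 to 17237593 on the plus strand. Its counts were 1131, 1038 and 1134 in control cells and 1251, 1119 and 1122 in TKT cells. In CPM these were 36.0, 34.1 and 33.8 against 33.7, 36.2 and 34.1, in overlap. The log2 fold change was 0.00 (standard error 0.06, edgeR adjusted p = 0.989), with a 95% interval of the fold of 0.914 to 1.10.

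Both remaining epithelial markers overlapped between groups. EPCAM, the epithelial cell adhesion molecule that is also carried by liver progenitors, lies on chromosome 2 from 47345158 to 47387601 on the plus strand. Its counts were 1048, 1015 and 1182 in control cells and 1279, 1022 and 1041 in TKT cells, or 33.3, 33.4 and 35.2 CPM against 34.5, 33.1 and 31.6 CPM. EPCAM was not called (log2 fold change -0.04, edgeR adjusted p = 0.786, 95% interval of the fold 0.887 to 1.07). The FPKM of VIM over that of EPCAM was 0.479 ± 0.0281 in control cells and 0.493 ± 0.0296 in TKT cells (SD, n = 3 each; exact two-sided permutation test, p = 0.6).

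OCLN, which encodes the tight junction protein occludin, was low and uneven. It lies on chromosome 5 from 69492292 to 69558104 on the plus strand. The control libraries had 122, 64 and 87 counts and the TKT libraries 164, 78 and 98. Replicate 1 was the highest library of each group, at 3.88 CPM in control cells and 4.42 CPM in TKT cells, and the other libraries lay between 2.11 and 2.98 CPM. OCLN was not called (log2 fold change 0.21, standard error 0.25, edgeR adjusted p = 0.674), and its interval, a fold of 0.807 to 1.67, was the widest of the 7 members with more than 3 counts in each control library. The OCLN pseudogene OCLNP1, which can share reads with OCLN, had 0 counts in control cells and 4, 0 and 6 in TKT cells.

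**Figure D3:**
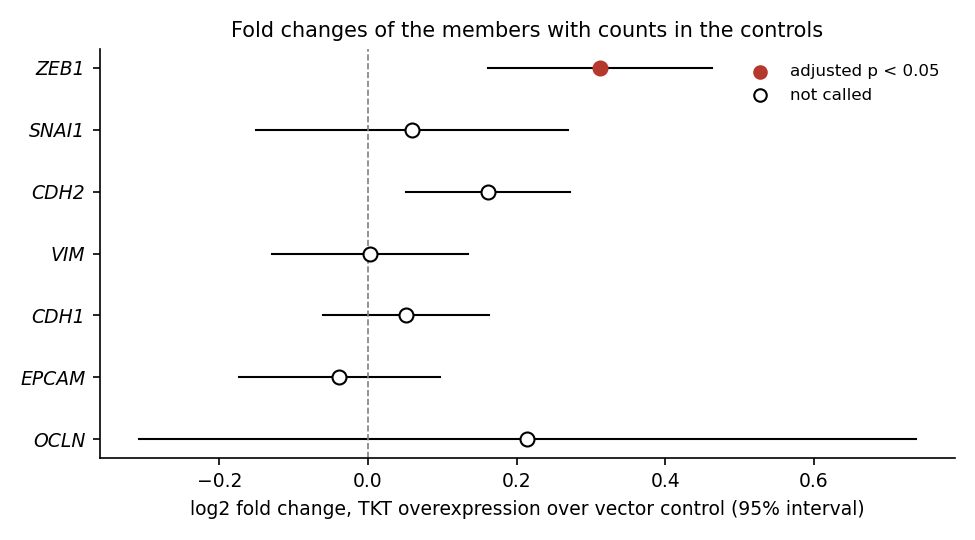
The log2 fold change of TKT overexpression over vector control is plotted for the 7 members with more than 3 counts in the control libraries, with 95% intervals from edgeR; filled points passed an adjusted p under 0.05. ZEB1 is the filled point at 0.31, CDH2 at 0.16 has an interval above 0 without passing the adjustment, and the intervals of SNAI1, VIM, CDH1, EPCAM and OCLN include 0.

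Compared per length, genes listed here as epithelial and as mesenchymal markers stood side by side. As CDH2 is not confined to mesenchymal cells, these levels do not by themselves show a mixed state. In the mean over all 6 libraries EPCAM was highest (13.7 FPKM), followed by CDH1 (10.1), CDH2 (9.83), SNAI1 (8.46), VIM (6.67), ZEB1 (3.56), OCLN (0.273), ZEB2 (0.0117) and SNAI2 (0.00682 FPKM). CDH1 and CDH2 were not separated beyond their spread, with 9.95 ± 0.527 against 9.27 ± 0.664 FPKM in control cells and 10.3 ± 0.219 against 10.4 ± 0.320 FPKM in TKT cells (SD, n = 3 each). CDH2 lay above SNAI1 (8.28 ± 0.639 FPKM, SD, n = 3) in each control library, with the lowest CDH2 value at 8.68 FPKM and the highest SNAI1 value at 8.69 FPKM.

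Several members overlap other annotated genes, and the strand option of the counting was not given in the sources used here, so reads of a gene and its antisense partner cannot be told apart. ZEB1-AS1, on the opposite strand of ZEB1, had between 49 and 88 counts per library and was not called (log2 fold change 0.29, standard error 0.24, edgeR adjusted p = 0.516). VIM-AS1 had between 0 and 10 counts, the pseudogene SPTLC1P1 within ZEB1 between 0 and 14, and FTLP14 and RNA5SP429 within CDH1 between 1 and 14 and between 0 and 4. EPCAM-DT, the divergent transcript of EPCAM, had between 4 and 12 counts. Each of these was far below its partner.

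Among listed signals that can induce EMT, more genes were higher than lower. This list, like the other gene lists here, was chosen with earlier results of these data known. Its counts therefore describe these genes and are no evidence about the set, and an effect of these signals on the members was not tested. Of the 20 ligands, receptors and mediators listed 18 were tested, and 7 were higher, 0 lower and 11 not called, with a median log2 difference of 0.14, beside 0.00 and 10.6% called among all genes tested. AREG and HBEGF, both ligands of EGFR, rose with log2 fold changes of 1.16 ± 0.15 and 1.22 ± 0.20 (± standard error, edgeR adjusted p = 1.37e-05 and 0.000259). AREG had 3.91, 4.90 and 4.11 CPM in control cells and 10.8, 8.55 and 9.45 CPM in TKT cells. EGFR itself rose from 180, 200 and 173 CPM to 220, 212 and 229 CPM (log2 fold change 0.26, edgeR adjusted p = 0.00156). TGFB2, a ligand of the TGF-beta pathway, rose from 13.1, 14.3 and 11.5 CPM to 19.8, 19.7 and 19.9 CPM (log2 fold change 0.61, edgeR adjusted p = 0.000241). SMAD3, which carries the TGF-beta signal to the nucleus, and JAG1, a Notch ligand, rose by less, with log2 fold changes of 0.23 and 0.29 (edgeR adjusted p = 0.00594 and 0.000448). The receptor TGFBR2, the most abundant gene of the list per length (36.9 FPKM), was not called (log2 fold change 0.05, edgeR adjusted p = 0.499), and HGF had at most 2 counts in any library. With each library left out in turn, 6 of the 7 calls were made every time.

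Most mesenchymal genes were not called. Of 45 listed genes 28 were tested, and 7 were higher, 1 lower and 20 not called, beside 5.69% higher and 4.94% lower among all genes tested. The median log2 fold change of the list was 0.14. LOXL2, a collagen crosslinking enzyme, and FBN1, which encodes fibrillin-1, rose with log2 fold changes of 1.07 and 0.84 (edgeR adjusted p = 7.90e-05 and 3.03e-05). TGFBI, a matrix protein induced by TGF-beta, rose from 261, 252 and 252 CPM to 322, 323 and 303 CPM (log2 fold change 0.31, edgeR adjusted p = 7.99e-06). LOX, the relative of LOXL2, fell from 134, 137 and 133 CPM to 118, 112 and 122 CPM (log2 fold change -0.19, edgeR adjusted p = 0.00826). With each library left out in turn, 5 of the 8 calls were made every time, those of LOXL2, FBN1, TGFBI and LOX among them.

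TPM1 and FN1 rest on fewer libraries. TPM1, an actin-binding tropomyosin, was higher by 0.20 on the log2 scale (edgeR adjusted p = 0.0227), and lost its call without TKT replicate 1 (adjusted p = 0.202) or control replicate 1 (adjusted p = 0.118). FN1, which encodes fibronectin, is not confined to mesenchymal cells and was the most abundant gene of the list per length (153 FPKM). It was higher by 0.13 (edgeR adjusted p = 0.0358). Its call was lost without TKT replicate 1 or 3 or control replicate 1 or 3 (adjusted p values between 0.114 and 0.181), and with library sizes alone as scaling (adjusted p = 0.0545). The next most abundant genes, COL5A2 and MMP14 (74.8 and 38.3 FPKM), had log2 fold changes of -0.01 and 0.08 and were not called (edgeR adjusted p = 0.917 and 0.218).

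Epithelial junction and surface genes moved in both directions. Of the 49 listed genes 40 were tested, and 5 were higher, 7 lower and 28 not called, beside 5.69% higher and 4.94% lower among all genes tested. The median log2 fold change was 0.01. PATJ, a polarity scaffold of the Crumbs complex, rose from 1.21, 1.05 and 0.774 CPM to 4.40, 3.11 and 2.92 CPM (log2 fold change 1.78, edgeR adjusted p = 8.68e-05). TJP3, which encodes the tight junction scaffold ZO-3, fell from 44.0, 45.7 and 41.9 CPM to 36.5, 34.6 and 37.2 CPM (log2 fold change -0.28, edgeR adjusted p = 0.00314). NECTIN1, an adherens junction adhesion molecule, and ERBB3, a receptor of the EGFR family, fell with log2 fold changes of -0.29 and -0.23 (edgeR adjusted p = 0.00967 and 0.00207). These 4 genes were the ones of 12 called with every library left out in turn. JUP, which encodes plakoglobin, was lower (log2 fold change -0.26, edgeR adjusted p = 0.00768) and lost its call without TKT replicate 3 (adjusted p = 0.0567) or control replicate 1 (adjusted p = 0.0515). CLDN1, a tight junction claudin with 177 FPKM, was higher (log2 fold change 0.13, edgeR adjusted p = 0.0157), and lost its call without TKT replicate 1 or 3 or control replicate 1 or 3 (adjusted p values between 0.0514 and 0.0723). The simple epithelial keratins KRT8 (392 FPKM) and KRT18 (279 FPKM) were the most abundant and were not called, with log2 fold changes of -0.04 and 0.03 (edgeR adjusted p = 0.763 and 0.662). CDH3, PKP3, KRT7 and RAB25 had at most 3 counts in every library.

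Epithelial transcription and splicing regulators were few in these cells. Of the 12 listed 6 were tested, and 2 were higher, 1 lower and 3 not called, beside 10.6% called among all genes tested. The median log2 fold change was -0.13. It includes RBFOX2, a splicing factor that is not particular to epithelial cells. RBFOX2 was uneven between libraries and not called (log2 fold change -0.54, standard error 0.40, edgeR adjusted p = 0.528). ELF3, an epithelial ETS factor, rose from 34.9, 30.5 and 35.5 CPM to 48.1, 48.2 and 46.1 CPM (log2 fold change 0.50, edgeR adjusted p = 1.30e-05). KLF4, a zinc finger factor that activates CDH1 in epithelia, rose from 1.84, 1.51 and 1.25 CPM to 3.99, 3.98 and 4.28 CPM (log2 fold change 1.41, edgeR adjusted p = 0.000163). ESRP2, which keeps the epithelial splice forms of genes such as FGFR2, fell from 79.5, 80.9 and 78.9 CPM to 68.9, 63.7 and 63.0 CPM (log2 fold change -0.29, edgeR adjusted p = 0.000855). All 3 calls were made with each library left out in turn. GRHL1, the next most abundant regulator (2.09 FPKM), was not called (log2 fold change 0.01, edgeR adjusted p = 0.981).

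**Figure D4:**
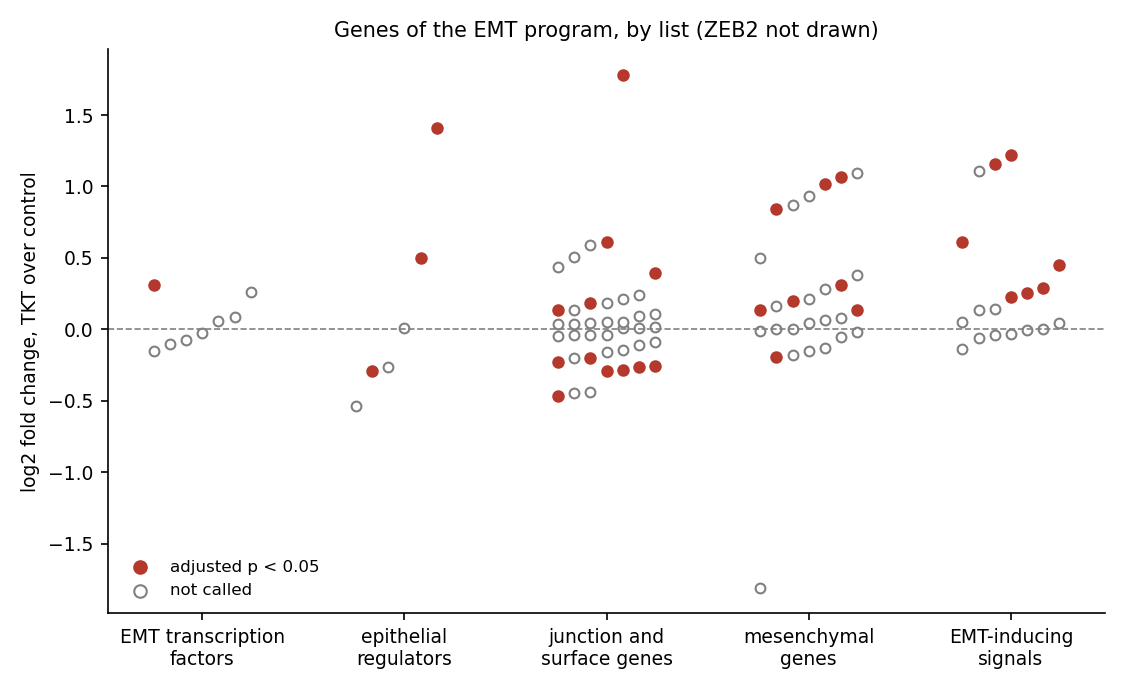
Each point is 1 tested gene of a list, placed by its log2 fold change of TKT overexpression over vector control (linear axis), filled where the adjusted p was under 0.05; horizontal spread within a list has no meaning, and ZEB2 is not drawn. The filled points of the EMT-inducing signals all lie above 0, 7 of 8 filled points of the mesenchymal genes lie above 0, and those of the junction and surface genes lie on both sides, 5 above and 7 below.

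The deposited table also carries GO annotation. Of its 48 genes under epithelial to mesenchymal transition 40 were tested, and 4 were higher and 4 lower, with a median log2 fold change of -0.03. Besides LOXL2 and TGFB2, the higher genes were BMP2 (log2 fold change 0.60) and HIF1A (0.15), and the lower ones were HMGA2 (-0.27), FGFR1 (-0.20), TGFBR3 (-0.19) and TRIM28 (-0.13), named after their values were seen. BMP2, a bone morphogenetic protein, and HMGA2, a chromatin protein that activates SNAI1 and TWIST1, were called with each library left out in turn (edgeR adjusted p = 9.59e-08 and 7.80e-05 over all libraries). HIF1A lost its call without TKT replicate 2 or 3 or control replicate 1 or 3, FGFR1 without TKT replicate 1 or control replicate 3, TGFBR3 without TKT replicate 1 or 2 or control replicate 1 or 2, and TRIM28 without any library but control replicate 2, with adjusted p values of up to 0.128, 0.0846, 0.135 and 0.127. Of the genes under positive regulation of EMT 41 were tested with 7 higher and 1 lower, and of those under negative regulation 22 were tested with 1 higher and 2 lower. The terms share genes, so these counts are not separate. LOXL2, TGFB2 and BMP2 are counted as higher both under epithelial to mesenchymal transition and under its positive regulation. MAD2L2 is counted as lower under both positive and negative regulation. All 3 terms stand beside 5.69% higher and 4.94% lower among all genes tested.

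**Figure D5:**
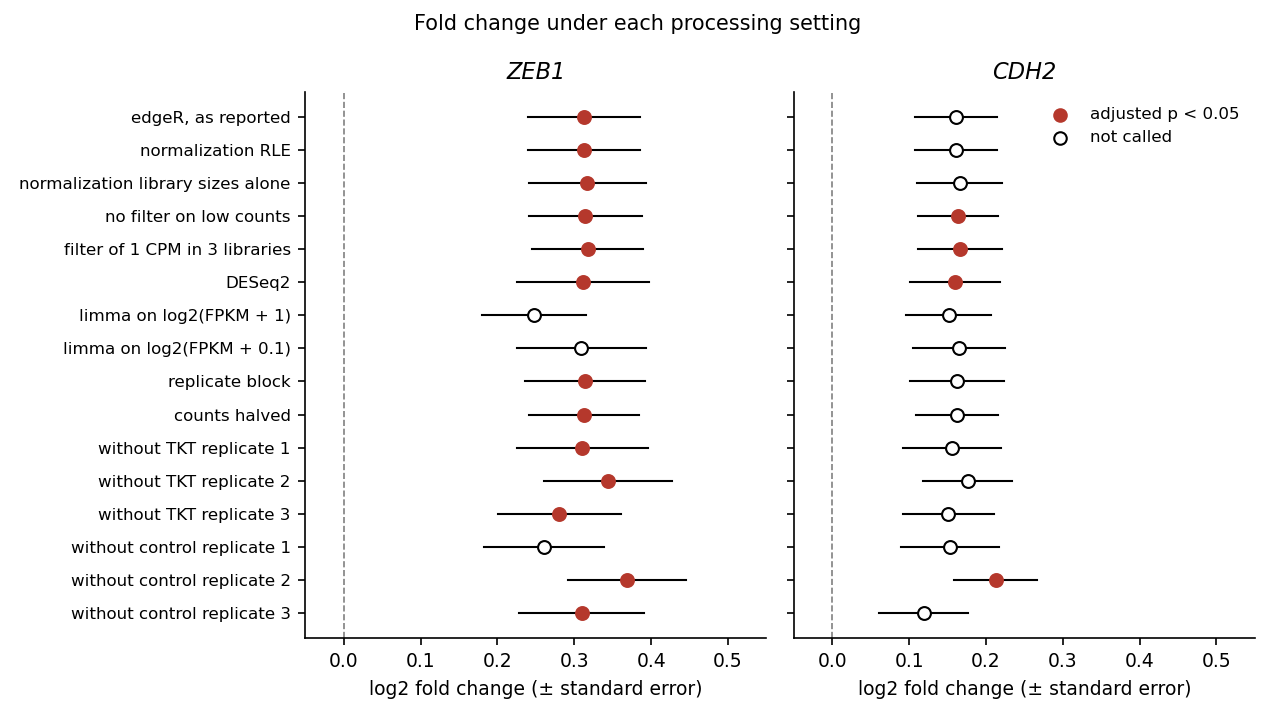
The log2 fold change (± standard error) of ZEB1 (left) and CDH2 (right) is plotted under the reported edgeR fit and each alternative, with filled points where the adjusted p was under 0.05. ZEB1 stays between 0.25 and 0.37 and is filled in 12 of 15 alternatives, and CDH2 stays between 0.12 and 0.21 and is filled in 4 of 15.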

How the data were processed

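RNA of 6 libraries was sequenced on the Illumina NovaSeq platform as paired-end reads. The authors trimmed reads with fastp 0.22.0, aligned them with HISAT2 2.1.0 to hg38 and counted them per gene with featureCounts, and deposited the counts without normalization. Annotation, strand and multi-mapping options are not given in the sources used here. The authors also deposited FPKM values, which served for levels between genes and for limma. Of per-sample columns, 0 were left unused.

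Counts were tested in R 4.3.3 with edgeR 4.0.16 (filterByExpr with a minimum count of 10, TMM, robust quasi-likelihood test, no pairing) and Benjamini-Hochberg adjustment over 14162 genes. The common biological coefficient of variation was 0.113. Where the sources do not say that libraries came from separate cultures, p-values measure the spread between these libraries. Promoter windows came from RefSeq (GRCh38.p14) and loci from GENCODE 29.

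The members and the gene lists were chosen with earlier results of these data known. The genes named are the 10 members, TKT, in each EMT list the called genes up to 6 by smallest p and the 3 highest in FPKM, list genes at or under 3 counts in every library where 5 or fewer, and genes that overlap or share reads with a member. Some list genes that this rule names are not reported here. PRRX1 and genes named from GO annotation were chosen after their values were seen. The alternatives were edgeR with other scalings and filters, DESeq2 1.42.0, limma 3.58.1 on log2(FPKM + 1) and log2(FPKM + 0.1), the replicate number as a block, each library left out and, added after seeing the data, halved counts (rounded up, minimum count 5).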

Additional observations from a re-analysis of the deposited data

How the results depend on the processing

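ZEB1 kept its direction in 15 of 15 alternatives and its call in 12, ZEB2 its direction in 13 of 13 and its call in 11, and CDH1, VIM, EPCAM, SNAI1 and OCLN were called in 0 of 15. ZEB2 was not tested with a filter of 1 CPM in 3 libraries and had no adjusted p in DESeq2. In the other filtered fits ZEB2 passed only through the TKT libraries, so its numbers of alternatives are a description and no independent support. The count of called members, 2 in the reported fit, was 0 with limma on log2(FPKM + 1) and on log2(FPKM + 0.1). In these limma fits ZEB1 had log2 fold changes of 0.25 and 0.31, and ZEB2 of 0.03 and 0.28, respectively. With each library left out the count was between 1 and 3. Without control replicate 1 the 1 call was that of ZEB2. The 32 called genes of the EMT lists fell to 14 with either limma fit. Over all genes, 1505 calls became 752 and 790 with limma, and between 791 and 1586 with a library left out, lowest without TKT replicate 1 and 881 without control replicate 1. With the fold threshold, 103 calls became 160 without a filter, 63 with DESeq2, and 15 and 68 with limma. The cause of these differences was not tested. Same-numbered libraries did not deviate together over all genes tested (correlations of their deviations -0.00192, -0.0252 and 0.0156). These values cannot tell whether such libraries were handled together. A fit with the replicate block gave 697 calls over all genes, 67 past the fold threshold, 20 in the EMT lists and ZEB1 and ZEB2 among the members. At this depth ZEB2 had 2 counts over the control libraries and SNAI2 had 0.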
